A study of Mus musculus with 24 samples.

Results

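Rod photoreceptor transcripts were followed in RNA of retinal microglia, with 9 genes chosen by name (Sag, Gnat1, Pde6g, Pde6b, Gngt1, Rom1, Rbp3, Prph2 and Pdc) out of 47729 gene rows in each table. Microglia are macrophages that reside in nervous tissue. They were sorted as CD11b+ Ly6c- Fcrls+ cells after a Percoll gradient, with 100 to 600 cells per retina and 1 library per retina. The 24 retinas came from 15 mice in 3 groups. The 12-month DBA/2J group (Gpnmb-/- Tyrp1b-/-) held 10 retinas of 5 animals, graded mild in 3 retinas, moderate in 4 and severe in 3. The 6-month DBA/2J group had the same genotype, with 1 retina from each of 5 animals. The 12-month DBA/2J Gpnmb+ group (Gpnmb+/+ Tyrp1b-/-), called Gpnmb+ here, held 9 retinas of 5 animals. All 3 groups thus carried Tyrp1b-/-, none was treated, and a 6-month Gpnmb+ group was not analysed here, so age and strain were not crossed. DBA/2J mice are an inbred strain known for age-related pigmentary glaucoma, an eye disease that damages ganglion cells.

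Rods are the photoreceptors of dim light. In their outer segment, a stack of membrane discs, light-activated opsin switches on the G protein transducin, transducin releases phosphodiesterase from its inhibitory subunit, and the fall in cyclic GMP closes cation channels. Rods are by far the most numerous neurons of the mouse retina, and the products of the 9 genes belong to photoreceptors rather than to microglia. The libraries do not separate RNA held by microglia from RNA of other material in the sort, and the source of the rod transcripts was not tested. In bulk samples of this kind, fewer cells of a type and less RNA per cell cannot be told apart.

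Gnat1, which encodes the alpha subunit of rod transducin, lies on chromosome 9 (107674474 to 107679712, GRCm38), and Gngt1, its gamma subunit, on chromosome 6 (3993792 to 3997436). Pde6b, a catalytic subunit of rod phosphodiesterase, lies on chromosome 5 (108388391 to 108432397), and Pde6g, the inhibitory subunit, on chromosome 11 (120447605 to 120453500). Sag, the arrestin that quenches activated opsin, and Pdc, phosducin, which binds the transducin beta and gamma subunits, both lie on chromosome 1 (87803680 to 87845158 and 150319417 to 150333906). Prph2 and Rom1 encode tetraspanins of the disc rim and lie on chromosome 17 (46910459 to 46924933) and chromosome 19 (8927391 to 8929356). Rbp3, the retinoid-binding protein of the space between photoreceptors and pigment epithelium, lies on chromosome 14 (33954003 to 33964216). No exon of the 9 genes overlapped an exon of another annotated gene.

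The promoters of the rod genes were searched for the core letters bound by the photoreceptor factors Crx (TAATCC or GGATTA) and Nrl (TGCTGA or TCAGCA). Both strands were covered by the paired spellings. The search describes the genes and not the differences between retinas. Of the 9 genes, 7 had an entry in the RefSeq promoter table of GRCm38.p6; Gnat1 and Pde6g had none. Within 250 bases upstream of the RefSeq start, the Crx letters were in 3 of 7 members (Sag, Gngt1 and Rbp3), against 6.25% of 32851 promoters. The Nrl letters were in 3 of 7 (Sag, Pde6b and Rbp3), against 16.1%. For Gngt1 the RefSeq start differs from the gene start given above (3993792). Most of its window and its Crx letters lie past that gene start. No Crx match overlapped an Nrl match. The 4 promoters with a match are shown 5′ to 3′ on the gene's own strand, with the matched letters in capitals: Sag at chr1:87803430-87803679, Pde6b at chr5:108388123-108388372, Gngt1 at chr6:3993758-3994007 and Rbp3 at chr14:33953753-33954002, all on the plus strand.
Sag: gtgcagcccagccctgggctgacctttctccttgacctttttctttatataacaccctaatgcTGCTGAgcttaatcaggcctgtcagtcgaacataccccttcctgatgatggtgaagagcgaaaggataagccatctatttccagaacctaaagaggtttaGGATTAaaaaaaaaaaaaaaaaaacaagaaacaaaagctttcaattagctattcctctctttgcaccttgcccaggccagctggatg
Pde6b: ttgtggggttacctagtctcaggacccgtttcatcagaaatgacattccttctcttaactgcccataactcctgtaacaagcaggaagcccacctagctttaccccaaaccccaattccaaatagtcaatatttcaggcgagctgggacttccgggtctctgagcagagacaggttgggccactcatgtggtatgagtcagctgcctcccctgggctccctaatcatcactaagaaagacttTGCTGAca
Gngt1: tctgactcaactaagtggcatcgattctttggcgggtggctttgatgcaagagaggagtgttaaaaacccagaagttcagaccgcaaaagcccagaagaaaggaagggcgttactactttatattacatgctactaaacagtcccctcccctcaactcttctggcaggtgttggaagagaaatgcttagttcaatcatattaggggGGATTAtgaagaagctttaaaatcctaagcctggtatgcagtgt
Rbp3: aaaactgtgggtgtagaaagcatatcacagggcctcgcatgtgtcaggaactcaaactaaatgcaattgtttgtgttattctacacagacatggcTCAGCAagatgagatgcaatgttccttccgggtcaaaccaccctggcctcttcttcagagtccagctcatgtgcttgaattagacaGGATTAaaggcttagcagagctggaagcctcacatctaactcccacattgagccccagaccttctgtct
Sag and Rbp3 held both sets of letters, with the Crx letters nearer to the start (87 and 69 bases upstream) than the Nrl letters (187 and 155 bases). A match describes letters in this window and is no measured binding site.

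The 12-month DBA/2J retinas had total counts of 1706775 to 20081114 and 10703 to 15046 genes with a count. The 6-month DBA/2J retinas had 12043911 to 17993059 counts and 13818 to 16716 genes, and the Gpnmb+ retinas 977886 to 14845311 counts and 3469 to 14468 genes. Altogether 5 retinas had fewer than 10000, all Gpnmb+ (both eyes of animals 1 and 2 and the right eye of animal 3). Gpnmb itself had 0 counts in the 10 and 5 DBA/2J retinas and counts in 1 of 9 Gpnmb+ retinas (459), so its transcript does not check the strain label of the other 8; Tyrp1 had 0 counts throughout. Microglia markers were found in all retinas: 10 genes, among them P2ry12, Tmem119 and Cx3cr1, summed to 12899 to 38087 CPM (counts scaled to a library total of 1000000). The microglia sum was 12899 to 21341 CPM in the 5 Gpnmb+ retinas under 10000 genes and 31005 to 34602 in the other 4. Fcrls, the gene of the sorted surface marker, was low, with a mean of 27.9 CPM and 0 counts in 6 of 24 retinas.

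Rod transcripts were found in every retina, and the highest retina had 104.7-fold the sum of the lowest. In 12-month DBA/2J the summed rod CPM was 3770 in the right and 690 in the left eye of animal 1, 1681 and 193 in animal 2, 1113 and 411 in animal 3, 311 and 574 in animal 4, and 441 and 2516 in animal 5. In 6-month DBA/2J the sum was 1489, 144, 177, 334 and 448 CPM in animals 1 to 5. In Gpnmb+ it was 148 in the right and 547 in the left eye of animal 1, 15064 and 4687 in animal 2, 2037 and 477 in animal 3, 590 in the right eye of animal 4, and 217 and 373 in animal 5. The 3 groups overlapped throughout, and Gpnmb+ held both the highest retina and the second lowest. In the right eye of Gpnmb+ animal 2 the 9 genes took 1.51% of all counts; without this retina the fold of highest over lowest was still 32.6. In the order of their rod sums, the 6 highest retinas had microglia sums of 17980, 20310, 17237, 21705, 21341 and 24249 CPM. These lay below the median of 31781 over the 24 retinas. The retinas at ranks 7 (6-month DBA/2J animal 1) and 8 (12-month DBA/2J animal 3, right eye) lay above it, with 34470 and 34419 CPM. The 2 lowest had 35134 (6-month DBA/2J) and 19034 (Gpnmb+).

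**Figure D1:**
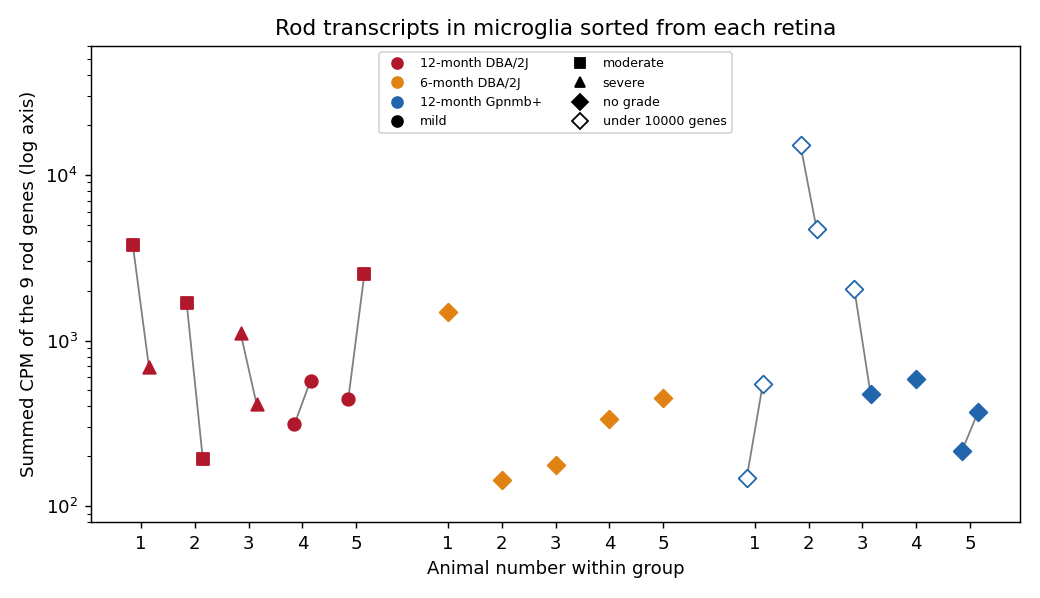
Summed CPM of the 9 rod genes in each of the 24 retinas (log axis) by animal, with lines joining the eyes of 1 animal, colours for the groups, shapes for the grade and open symbols for retinas with fewer than 10000 genes. The 2 highest retinas are the eyes of Gpnmb+ animal 2 (15064 and 4687 CPM), and the eyes of 1 animal often lie far apart.

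The eyes of 1 animal often differed several-fold. Among the 9 animals with both eyes sequenced, the higher eye exceeded the lower by a median of 3.70-fold, with a range of 1.72-fold (Gpnmb+ animal 5) to 8.71-fold (12-month DBA/2J animal 2). The right eye was higher in 5 animals and the left in 4. The higher eye was also the one with more genes detected in 3 of the 9 animals.

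The 9 genes were high together. All 9 had their highest CPM in the same retina, the right eye of Gpnmb+ animal 2, which also had the fewest counts and genes. In each of the 7 retinas with the highest sums, all 9 genes lay above their own median over the 24 retinas. These 7 retinas came from every group: 3 from Gpnmb+, 3 from 12-month DBA/2J and 1 from 6-month DBA/2J. At the low end, the 5 lowest retinas had at most 1 member above its median. The order is that of the sum of these same 9 genes, so the members' levels at its ends follow in part from the ranking. How far the genes rise together beyond that was not tested.

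**Figure D2:**
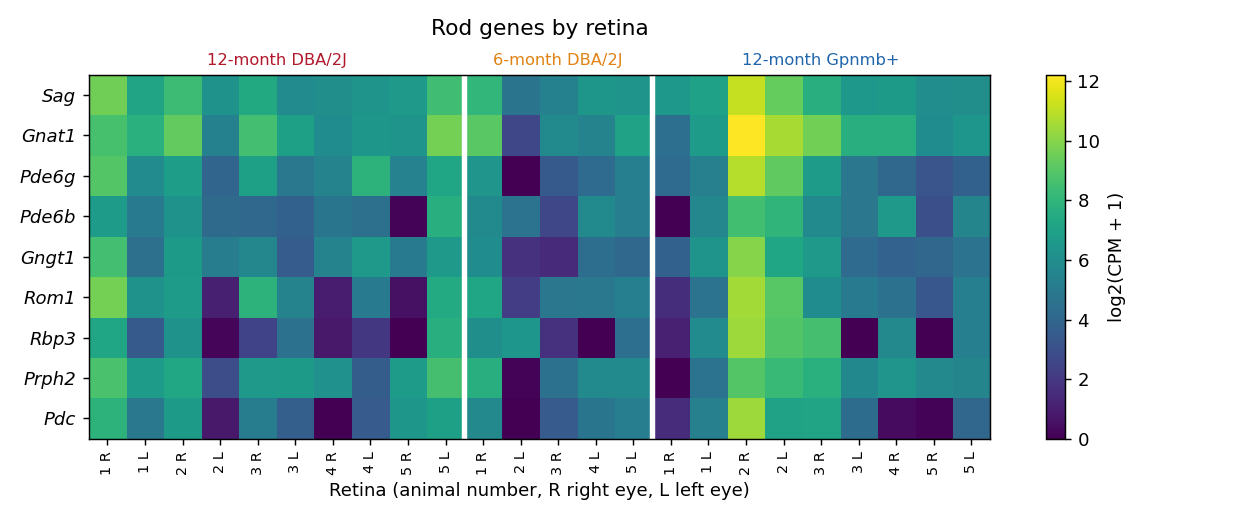
Colour gives log2(CPM + 1) of each rod gene (rows) in each retina (columns, by animal number and eye), with the groups set apart by white lines. Whole columns are bright or dark, led by the right eye of Gpnmb+ animal 2, where all 9 genes had their highest value, and dark cells mark genes at or near 0.

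The composition of the sum also differed between retinas. Gnat1 had the largest CPM of the 9 in 14 of 24 retinas and Sag in 5, with Prph2 in 2 and Pde6g, Rbp3 and Rom1 in 1 each. Gnat1 made up a median of 29.3% of the sum (range 3.56% to 43.9%) and Sag 18.5% (9.77% to 61.2%), while Rbp3 had a median of 4.10% and a range of 0% to 58.1%. The 58.1% was in 6-month animal 2, the retina with the lowest sum, where Gnat1 had 5.13 CPM and Pde6g and Pdc had 0 counts. On the length-corrected TPM scale (as deposited), Gnat1 had a median level of 86.5 TPM over the 24 retinas, Sag 85.3 and Pde6g 81.8, against 6.03 for Rbp3 and 17.4 for Pde6b; Gnat1 led in 12 retinas, Sag in 6, Pde6g in 5 and Pdc in 1. Sag, Gnat1, Gngt1 and Rom1 had counts in all 24 retinas. Rbp3 had 0 counts in 4 retinas, Pdc in 2, and Pde6g, Pde6b and Prph2 in 1 each.

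The disease grade within 12-month DBA/2J did not order the rod sums. Mild retinas had 311, 441 and 574 CPM, moderate retinas 193, 1681, 2516 and 3770, and severe retinas 411, 690 and 1113. The 3 highest 12-month DBA/2J retinas were moderate, and so was the lowest. In 2 animals the eyes had different grades, and the moderate eye was the higher one in both: animal 1 had 690 CPM in the severe and 3770 CPM in the moderate eye, and animal 5 had 2516 CPM in the moderate and 441 CPM in the mild eye. In a linear trend over grade, fitted by edgeR's quasi-likelihood test on 7 sums of counts from 5 animals (2 each from animals 1 and 5, fitted as independent), 0 of 9 members passed an adjusted p of 0.05 (adjusted p 1.00 for each), as did 0 of 12019 genes (0%). The log2 change per grade was positive for 6 members (50.1% of all genes) and negative for 3 (49.9%), with a median of 0.32, and 0 were past an unadjusted p of 0.05, against 0.815% of all genes higher and 0.616% lower. Gnat1 had 0.81 ± 0.74 (SE), and Rbp3, which spanned 0 to 2.93 CPM in mild and 0.161 to 202 CPM in moderate retinas, had 1.96 ± 4.09. The median of the 9 turned to -0.65 without animal 4 and to -0.60 without animal 5, the 2 animals that supply the mild retinas, and was 1.26 without animal 3. With the animal as a block, it was -0.10, with 4 members positive and 5 negative.

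Of the other rod genes, 36 entered the trend fit, 13 of phototransduction, 18 of the outer segment and photoreceptor upkeep and 5 transcription factors, and 0 passed an adjusted or an unadjusted p of 0.05. The smallest p values belonged to Rp1, a protein of the outer segment axoneme (-2.48 ± 1.97), and Otx2, a photoreceptor transcription factor (3.36 ± 2.69). Next were Slc24a1, the rod sodium, calcium and potassium exchanger (-0.86 ± 0.73), and Cabp4, a calcium-binding protein of the photoreceptor synapse (3.75 ± 3.28). Over the 24 retinas of all groups, Otx2 had 0 counts in 17 and Cabp4 in 10.

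The first comparison of groups asked how rod transcripts differed between strains at 12 months, with the eyes of an animal summed and the animal as the replicate. The summed rod CPM was 1776, 1179, 654, 368 and 1600 in 12-month DBA/2J animals 1 to 5, against 361, 6839, 1127, 590 and 297 in Gpnmb+ animals. Gpnmb+ held both the highest animal and the 2 lowest. The mean was 1115 ± 601 CPM in 12-month DBA/2J and 1843 ± 2812 in Gpnmb+ (SD, n = 5 each), while the median ran the other way, with 1179 in 12-month DBA/2J and 590 in Gpnmb+. On the log2(CPM + 1) scale the difference of means was 0.14, against a pooled SD of 1.45 between animals.

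Gnat1 had 287, 429, 213, 66.9 and 489 CPM in the 12-month DBA/2J animals, against 65.8, 2243, 446, 205 and 73.5 CPM in Gpnmb+ animals. Sag had 360, 245, 97.3, 67.7 and 240 CPM in 12-month DBA/2J, against 111, 996, 135, 102 and 64.3 CPM in Gpnmb+. Both genes overlapped between the groups, and animal 2 of Gpnmb+ lay above all others in each. By edgeR's quasi-likelihood test, 0 of 9 members passed an adjusted p of 0.05 (adjusted p 0.999 for each), as did 0 of 12977 genes (0%, smallest adjusted p 0.313). At an unadjusted p under 0.05, 0 of 9 members were higher or lower, against 2.76% of all genes higher and 2.45% lower. The fitted log2 fold change was negative for 8 members (47.5% of all genes) and positive for Prph2 (52.5% of all genes), with a median of -0.62, beside 0.05 over all genes. It was -0.93 ± 0.96 (SE) for Gnat1, -0.39 ± 0.72 for Sag, -1.92 ± 1.25 for Rbp3 and 0.36 ± 0.95 for Prph2. Their 95% intervals all included 0, with -2.96 to 1.09 for Gnat1. The 8 negative fitted changes differed in sign from the difference in log2 sums.

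The negative signs rested on 1 animal. Without Gpnmb+ animal 2, 8 of 9 members were positive, with a median of 1.07, beside 0.02 over all genes. By edgeR, 1 member was higher at an unadjusted p under 0.05, beside 901 of 13665 genes past it in either direction. When the 5 retinas under 10000 genes were dropped, Gpnmb+ animals 1 and 2 and 1 eye of animal 3 were gone. All 9 members were then positive, with a median of 1.37, beside 0.05 over all genes. By edgeR, 3 members were higher at an unadjusted p under 0.05, beside 1057 of 14275 genes past it in either direction. No member passed the adjusted threshold. The 5 dropped retinas also had the low microglia sums given above, and the part of either measure in this comparison was not tested.

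Of 38 other rod genes tested, 10 had positive and 28 negative log2 fold changes, and 0 passed an adjusted p of 0.05 by edgeR. Slc24a1 alone was past an unadjusted p of 0.05 by edgeR (2.29 ± 1.07, p 0.0469). Next came Prcd, a protein of the outer segment disc (4.40 ± 2.27), and Rp1l1, a relative of Rp1 (-3.79 ± 2.48). Rdh12, a retinol dehydrogenase of photoreceptors (2.85 ± 2.08), followed. Prcd, Rp1l1 and Rdh12 had 0 counts in 13, 17 and 13 of 24 retinas.

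The next comparison set 12-month DBA/2J against 6-month DBA/2J, to ask how rod transcripts differed with age. The summed rod CPM was 1776, 1179, 654, 368 and 1600 in 12-month animals, against 1489, 144, 177, 334 and 448 in 6-month animals. The groups overlapped: 6-month animal 1 exceeded 3 of the 12-month animals, and the other 4 lay below every 12-month animal, except that animal 5 exceeded 12-month animal 4. The mean was 1115 ± 601 CPM at 12 months and 518 ± 556 at 6 months (SD, n = 5 each), and the difference of log2 means was 1.43, against a pooled SD of 1.16.

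Pde6g had 215, 80.5, 61.1, 85.1 and 104 CPM in the 12-month DBA/2J animals, against 82.9, 0, 9.96, 18.1 and 37.6 CPM in the 6-month animals. Gngt1 had 147, 77.5, 24.4, 54.4 and 66.6 CPM at 12 months, against 60.1, 2.35, 1.74, 20.6 and 15.9 CPM at 6 months. In both genes 4 of 5 animals at 6 months lay below every 12-month animal, and animal 1 did not. By edgeR's quasi-likelihood test, 0 of 9 members passed an adjusted p of 0.05 (adjusted p 1.00 for each), as did 0 of 12977 genes (0%, smallest adjusted p 0.253). The fitted log2 fold change was positive for all 9 members, beside 50.6% of all genes, and negative for 0, beside 49.4%, with a median of 1.27, beside 0.01 over all genes. Gngt1 was higher at an unadjusted p under 0.05 (2.06 ± 0.93, p 0.0397), as were 2.10% of all genes, and 0 members were lower, beside 1.55% of all genes. Pde6g had 2.06 ± 1.18, Rom1 1.52 ± 1.08, Sag 1.18 ± 0.73 and Rbp3 0.57 ± 1.21. Without 6-month animal 1 the median was 2.28, beside 0.06 over all genes. There 6 members were higher at an unadjusted p under 0.05, with the adjusted threshold still not passed. The share of all genes past that p in this setting is not given here. Measures of the libraries differed between the ages as well: mitochondrial genes took 1.43% to 3.34% of counts at 12 months and 0.641% to 1.49% at 6 months, the median number of genes was 12216 at 12 months and 13987 at 6 months, and the microglia sum was 17237 to 38087 CPM at 12 months and 32261 to 37025 at 6 months. Their part in the comparison was not tested.

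Other rod genes were mostly positive here, with 12 of 14 phototransduction genes (median 0.73), 16 of 19 outer segment genes (1.05) and 4 of 5 transcription factors (0.92), and 0 of 38 were past an adjusted or an unadjusted p of 0.05. The 4 smallest p values belonged to Nxnl1, the gene of rod-derived cone viability factor (1.97 ± 1.71), Unc119, a lipid-binding trafficking protein (1.84 ± 1.66), Pde6a, the partner of Pde6b (1.44 ± 1.33), and Cngb1, a subunit of the rod cation channel (1.59 ± 1.52).

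The third comparison set 6-month DBA/2J beside 12-month Gpnmb+, where age and strain cannot be told apart. It shares its animals with the other comparisons, so the 3 sets of values are not independent. The summed rod CPM was 1489, 144, 177, 334 and 448 in 6-month DBA/2J, against 361, 6839, 1127, 590 and 297 in Gpnmb+, and the groups overlapped. The difference of log2 means was -1.28, against a pooled SD of 1.60. By edgeR's quasi-likelihood test, 0 of 9 members passed an adjusted p of 0.05 (adjusted p 1.00 for each), as did 0 of 12977 genes (0%, smallest adjusted p 0.198). The log2 fold change was negative for all 9 members, beside 48.7% of all genes, and positive for 0, beside 51.3%. Its median was -2.02, beside 0.03 over all genes. At an unadjusted p under 0.05, 0 members were higher, against 2.2% of all genes, and 3 were lower, against 1.57%: Gngt1 (-2.28 ± 0.94, p 0.0256), Pde6g (-2.78 ± 1.22, p 0.0349) and Sag (-1.57 ± 0.74, p 0.0481). Without Gpnmb+ animal 2 the median was -0.25, beside -0.01 over all genes, and 0 members were past that p. Without the 5 retinas with fewer than 10000 genes, 7 of 9 members were positive. The median was then 0.18, beside 0.03 over all genes. Among other rod genes, the smallest p values were those of Rp1l1 (-5.93 ± 2.75, p 0.0451), Gnb1, the transducin beta subunit, which many cells express (-1.40 ± 0.69), Cngb1 (-3.02 ± 1.60) and Guca1a, an activator of guanylate cyclase (-1.62 ± 0.87). Rp1l1 had 0 counts in 17 of 24 retinas, and its highest level (250 CPM) was in the left eye of Gpnmb+ animal 2. In all 3 comparisons, 0 of 9 members had groups of animals that did not overlap, against 1.13%, 2.48% and 1.3% of all genes.

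**Figure D3:**
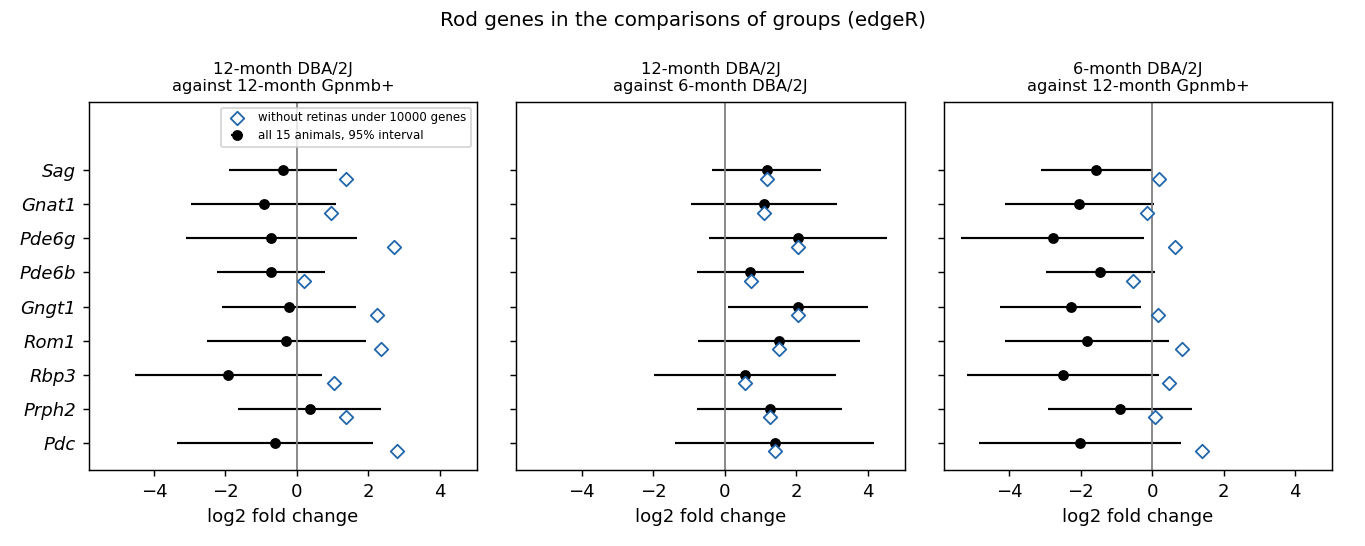
Fitted log2 fold change of each rod gene in the 3 comparisons of groups, with all 15 animals (filled points, bars give the 95% interval) and without the 5 retinas with fewer than 10000 genes (open diamonds). In both comparisons with Gpnmb+ the diamonds lie right of the points, and in the comparison of ages they coincide nearly.

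The retinas with the fewest genes were not uniformly high in rod transcripts. Among the 5 Gpnmb+ retinas with fewer than 10000 genes, the summed rod CPM was 15064 at 3469 genes, 4687 at 7134, 547 at 9341, 148 at 9518 and 2037 at 9958. The other 4 Gpnmb+ retinas, with 13365 to 14468 genes, had 217 to 590 CPM. The group with few genes thus held the 3 highest Gpnmb+ retinas and also the lowest one. In 12-month DBA/2J the 5 retinas above the group's median sum included 3 above its median of genes, and in 6-month DBA/2J the 2 retinas above the median sum were also the 2 with the most genes (16321 genes at 1489 CPM, 16716 at 448). At an equal total of 977886 counts, the expected number of genes was 3469 to 13372, and the 2 retinas with the fewest were again the eyes of Gpnmb+ animal 2.

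**Figure D4:**
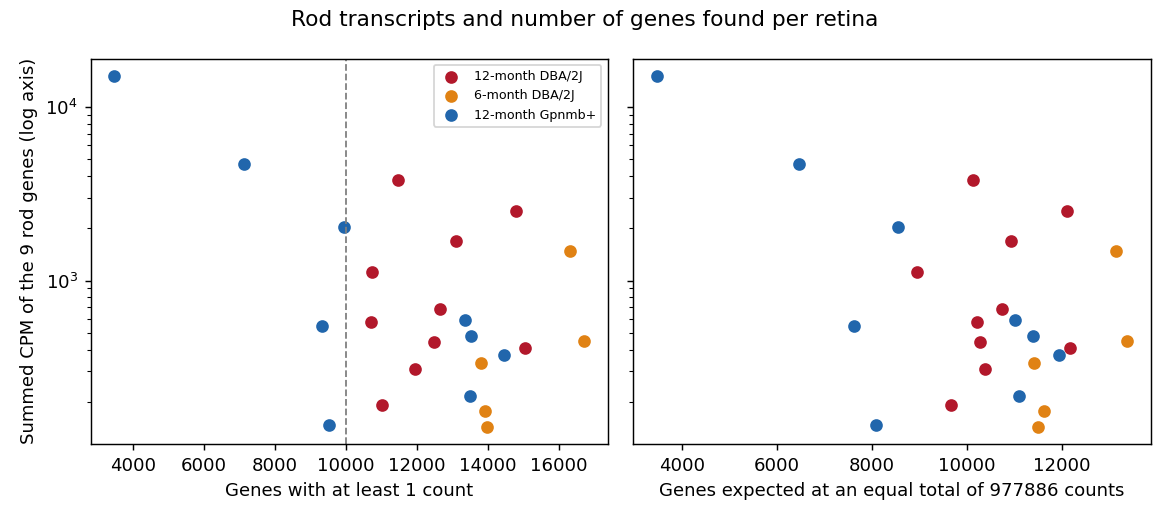
Summed rod CPM (log axis) against the number of genes with at least 1 count (left, dashed line at 10000 genes) and against the number expected at 977886 counts (right), 1 point per retina. Gpnmb+ retinas with few genes span 148 to 15064 CPM, and the DBA/2J retinas show high and low sums at similar numbers of genes.

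Other rod genes had counts beside the 9, not all of them in most retinas: 3 of 14 phototransduction genes, 6 of 21 outer segment and upkeep genes and 1 of 5 transcription factors had a median of 0 CPM. The 14 other phototransduction genes summed to 117 to 6324 CPM (median 279), the 21 outer segment and upkeep genes to 20.4 to 5849 (132) and the 5 transcription factors to 0 to 691 (39.2). The highest mean CPM over the 24 retinas was that of Gnb1 (385), the largest part of the phototransduction sum and expressed by many cells, followed by Rcvrn, recoverin (89.1), Guca1b, an activator of guanylate cyclase (72.6), and Cplx4, a complexin of photoreceptor synapses (61.7). In the right eye of Gpnmb+ animal 2, 7 of the 14, 10 of the 21 and 2 of the 5 genes had their highest CPM, among them Rcvrn (1195) and Nr2e3, a rod transcription factor (563).

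Of 8 Muller glia and astrocyte genes, 5 had a median of 0, among them Gfap, with 0 counts in all retinas. The list summed to 100 to 781 CPM (median 329, beside 512 for the 9 rod genes). Glul (mean 252) and Slc1a3 (65.4) made up most of it. In 6-month DBA/2J the median of this list (371 CPM) was above that of the rod sum (334 CPM). Which cells the Glul and Slc1a3 counts came from was not tested, so the list sum is no measure of glial RNA. The lists of other retinal neurons were at lower levels. Of 10 cone genes, 9 had a median of 0, among them the cone opsin Opn1mw and the cone transducin Gnat2, both with 0 counts in all 24 retinas; the list's 17.2 to 218 CPM came nearly all from Gngt2, which leukocytes may express as well. Of 12 genes of bipolar, amacrine and horizontal cells, 11 had a median of 0, with Prkca the exception (13.9 CPM). All 7 ganglion cell genes had a median of 0, and the list summed to at most 3.90 CPM. Pigment cell, endothelial, lens and red cell lists summed to at most 29.5, 146, 137 and 0.111 CPM. In these lists 7 of 8, 4 of 6, 5 of 7 and 4 of 4 genes had a median of 0. The sums thus came from few genes, and the cells behind those counts were not tested.

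**Figure D5:**
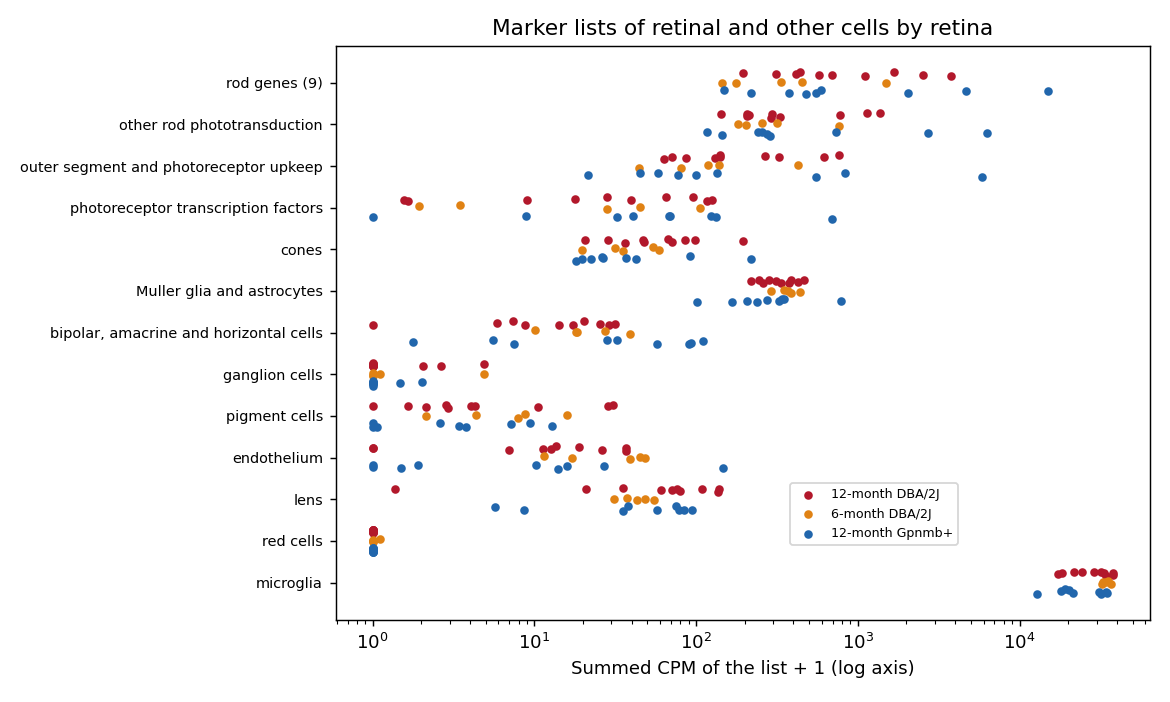
Summed CPM + 1 (log axis) of each marker list in each retina, coloured by group. Microglia genes lie above 10000 CPM in every retina, the 9 rod genes span 144 to 15064 CPM, and ganglion cell and red cell genes lie near 0.

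Across the 15 animals, Spearman's rho with the rod sum, given as a description with no test, was 0.97 for Prph2, 0.93 for Sag, 0.93 for Gnat1, 0.76 for Pde6b and 0.60 for Rbp3, each of which is part of that sum. Among the genes outside the rod and marker lists with a mean of at least 10 CPM, those with values most like it included Pf4 (0.90), Hmgn1 (0.84), Prr12 (0.83), Man1b1 and Lyar (0.80 each), Rtbdn (0.80), Mrc1 (0.78), Snap25 (0.77), Morc2a and Fcgr4 (0.77 each). These points share library and depth, and 8513 genes were ranked. Among the microglia genes, rho was 0.38 for Fcrls and -0.41 for P2ry12.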

How the data were processed

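RNA of sorted microglia was sequenced per retina in 24 libraries. The authors deposited 1 table per retina with expected counts (estimated reads per gene, not normalized) and TPM (transcripts corrected for length and library size), per the file headers. DESeq2 1.30.1, Salmon 1.4.0, R 4.0.3 and mm10 are listed, with no role for each, in the submitters' processing notes, and strand use was not given in the sources used here. A table of the whole series with 24 per-sample columns was not used. Expected counts were rounded and turned into CPM by the total of each library; 65.1% of the values above 0 were not whole before rounding. Of 47729 gene IDs, 47224 matched a GENCODE vM21 symbol. For tests, counts were summed over the eyes of an animal (for grade, over eyes of 1 animal with the same grade). edgeR 4.0.16 in R 4.3.3 (quasi-likelihood F test, TMM scaling, filterByExpr set to min.count 10 and min.total.count 15, Benjamini-Hochberg adjustment over all genes) fitted all 15 animals together for the 3 comparisons, and a slope over grade (mild 0, moderate 1, severe 2) on 7 sums. SE is the log2 fold change divided by the root of F. Code was tested on simulated counts. Depth differs widely between retinas, and intervals of the 3 comparisons cover the spread between animals only; the trend counts both sums of an animal as independent.

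Differences in the rod sum are means of log2(CPM + 1) and have no test. Numbers of genes at equal depth are expectations at the smallest library total. The libraries of 1 group were compared in 91 pairs, and each pair differed by more than counting noise (smallest chi-square per degree of freedom 81.8). Promoters and their build are those of RefSeq; gene positions are those of GENCODE vM21. The members, lists and tests were chosen with earlier results of these data known. Named were the 9 members, the other rod genes with the 4 highest mean CPM and the 4 smallest p per comparison, and the genes with the 10 highest correlations with the rod sum, ties included; Nr2e3 and the marker genes singled out were chosen after their values were seen. Some genes that the last rule would name are not reported here. Alternatives were DESeq2 1.42.0, RLE scaling, other filters, single retinas as replicates, a random animal effect (limma 3.58.1), only the groups compared, leaving out shallow retinas or retinas with few genes, 1 retina per animal, a block for the animal number, and each animal left out in turn.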

Additional observations from a re-analysis of the deposited data

Results flagged for a closer look

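In 15 of 30 sets of 5 animals, 1 animal stood apart from the others of its group. Its gap to the next animal was more than 0.71 of the group's range. For normally distributed values this cut is passed in about 1 in 20 sets. The gaps were taken on the CPM scale without logs, so that rate does not measure chance here. The sets are not independent, since the 9 genes come from the same libraries.

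Animal 2 of Gpnmb+ stood apart in the rod sum, with 6839 CPM, and in 8 of the 9 genes: Sag (996 CPM), Gnat1 (2243), Pde6g (861), Pde6b (278), Gngt1 (325), Rom1 (734), Rbp3 (669) and Pdc (389). Its total of 4715540 counts over both eyes was the lowest of the 15 animals, and its eyes had 3469 and 7134 genes; the part of depth in these values was not tested.

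Animal 1 of 6-month DBA/2J stood apart in the rod sum, with 1489 CPM, and in Sag (272 CPM), Gnat1 (544), Rom1 (148) and Prph2 (205). Its retina had 17282458 counts and 16321 genes. Animal 1 of 12-month DBA/2J stood apart in Pde6g alone, with 215 CPM.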

How the results depend on the processing

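No member passed an adjusted p of 0.05 under any alternative (smallest 0.451 for 12-month DBA/2J against Gpnmb+, 0.284 against 6-month DBA/2J, 0.307 for 6-month DBA/2J against Gpnmb+ and 0.723 for grade). Of 189 member values per comparison, 30, 1 and 9 turned their sign, and of 90 in the trend 16 did; the cause was not tested.

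Over all genes, the count called in 12-month DBA/2J against Gpnmb+ was 0, but 104 with DESeq2, 8 with a random animal effect and 0 to 1 when 1 animal was left out (1 without 12-month DBA/2J animal 5). In 12-month against 6-month DBA/2J it was 60 with DESeq2, 5 with a random animal effect and 2 with no filter. In 6-month DBA/2J against Gpnmb+ it was 53 with DESeq2 and 40 with a random animal effect, and in the trend 26 with DESeq2 and 6 with no filter. At an unadjusted p under 0.05, edgeR had 676, 474, 489 and 172 genes in the 4 fits.

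In 12-month DBA/2J against Gpnmb+, without retinas under 10000 genes, the log2 fold change was 1.36 for Sag, 0.96 for Gnat1, 2.71 for Pde6g, 0.20 for Pde6b, 2.23 for Gngt1, 2.36 for Rom1, 1.05 for Rbp3 and 2.81 for Pdc. With a random animal effect it was 0.40 for Sag, 0.48 for Gnat1, 1.25 for Pde6g, 0.53 for Gngt1, 0.0099 for Rom1 and 1.46 for Pdc. Without retinas under 20% of the median total it was 0.038 for Sag, 0.45 for Gngt1, 0.14 for Rom1 and 0.46 for Pdc, and with 1 retina per animal 0.40 for Pdc. Leaving out 1 animal gave -0.72 to 0.92 for Sag, -1.22 to 0.60 for Gnat1, -1.14 to 1.85 for Pde6g, -1.11 to 0.18 for Pde6b, -0.65 to 1.07 for Gngt1, -1.13 to 2.26 for Rom1 and -0.94 to 1.19 for Pdc; Gpnmb+ animal 2 turned each of these.

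In 6-month DBA/2J against Gpnmb+, without retinas under 10000 genes, it was 0.18 for Sag, 0.64 for Pde6g, 0.17 for Gngt1, 0.83 for Rom1, 0.47 for Rbp3, 0.095 for Prph2 and 1.405 for Pdc. With a random animal effect it was 0.032 for Pde6b there, beside a median of 1.09 over all genes. Between the ages it was -0.45 for Pde6b, beside a median of -0.43 over all genes. In 6-month DBA/2J against Gpnmb+, Rom1 turned without Gpnmb+ animal 2 (range over animals -2.78 to 0.74).

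In the trend, leaving out 1 animal gave -0.59 to 1.26 for Sag, -0.94 to 0.71 for Pde6g, -0.67 to 1.74 for Pde6b, -1.70 to 0.68 for Gngt1, -0.46 to 4.75 for Rom1, -1.54 to 5.73 for Rbp3, -0.48 to 0.80 for Prph2 and -1.41 to 0.53 for Pdc.

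Animal numbers do not pair the 3 groups (correlations of same-numbered animals -0.046 to 0.088). With the number as a block, Pde6g had 0.52 and Rom1 0.41 in 12-month DBA/2J against Gpnmb+, and Sag -0.27 and Prph2 -0.10 in the trend, and the block made no call. The median of all genes in the first comparison was 0.59 with the random effect and 0.34 with the block, beside 0.05 without them. The difference in the log2 rod sum for 12-month DBA/2J against Gpnmb+ was 0.14 with all animals. It was -0.24 to 0.89 over left-out animals and 1.13 without retinas under 10000 genes. Over left-out animals it was 1.10 to 1.94 between the ages and -1.80 to -0.54 for 6-month DBA/2J against Gpnmb+. Every alternative run moved it by less than the pooled SD. That SD is the spread of single animals and does not measure the error of a difference of means. The sum's depth limit is set by the smallest library, at 977886 counts.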
